A study of Mus musculus with 59 samples.

Results

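The fat cell genes Adipoq, Car3, Cfd and Fabp4 were followed array by array in a mouse model of myocardial infarction. They had been chosen by high intensities of Adipoq and Car3 on infarct arrays at 1 week and at 8 weeks, and every probe set annotated to exactly 1 of the genes was taken. This gave 3 probe sets of 10833 with 1 gene, and 3 of the 4 genes: Adipoq, Car3 and Fabp4. No probe set was named as Cfd in the annotation used, and Cfd was not analysed here. All 3 measured genes were among the 6670 genes tested of 8251, a filter that asked for an intensity of 108.2 on at least 3 arrays.

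Total RNA from pieces of left ventricle was hybridised to Affymetrix arrays, 1 piece per array, 59 arrays in all. Infarcted mice gave an infarct piece, from between the left anterior descending (LAD) artery and the apex, and a remote piece, from above the LAD and outside the infarct. Mice with sham surgery gave a sham upper piece, from the same place as the remote piece, and 5 also gave a sham lower piece, from the place of the infarct. Infarct, remote and sham upper tissue had 3 arrays each at 1 h, 4 h, 24 h, 48 h, 1 week and 8 weeks, 18 arrays per region, and sham lower tissue had 1 array at each time except 8 weeks. No strain, sex, age or surgical method is given in the sources used here, and no treatment or genetic change is named in the labels of any group. Infarct and remote pieces share the number in their titles in 17 pairs, 3 at each time except 24 h, which has 2. The labels do not say what that number means, and it is read here as standing for 1 mouse. Within each time, arrays are called A, B and C in the order of that number, so that infarct A and remote A of a time are pieces of 1 number, except C at 24 h.

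Values are the deposited intensities, scaled alike on every array. Array medians lay between 157 and 214, so the arrays were of like overall brightness. The ratio of the 3′ to the 5′ control probe sets of Gapdh, a sign of RNA quality, was 0.756 to 0.953 over all arrays. The tissue label was borne out: the sum of the 15 of 17 listed cardiomyocyte markers on the array was 226337 to 333585 on the sham arrays of both regions. Up to 48 h, infarcted and sham mice had title numbers in ranges of their own, so a difference between sets of mice and the effect of infarction cannot be told apart at those times. In pieces of tissue, a change in the number of cells of a type and a change in RNA per cell cannot be told apart.

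White fat cells store triglyceride and secrete hormones, among them adiponectin, the product of Adipoq. Fat lies on the outer surface of the heart along the coronary vessels and fills the chest around it, next to the mesothelium, the cell layer that lines the pericardium and covers the heart. Car3 encodes carbonic anhydrase III, an enzyme abundant in fat cells, slow skeletal muscle and liver. Cfd encodes adipsin, the complement factor D that fat cells secrete. Fabp4 encodes a fatty acid binding protein that fat cells hold in large amounts, and that capillary endothelium of the heart and activated macrophages also make.

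Adipoq (probe set 99104_at) lies at chr16:23146536-23157968, Car3 (160375_at) at chr3:14863538-14872381 and Fabp4 (100567_at) at chr3:10204342-10208616, in the mouse build GRCm38.p6. Cfd lies at chr10:79890853-79892655. RefSeq promoter sequence of GRCm38.p6 was in hand for 2 of the 4 genes, Adipoq and Cfd. The 250 bases before the start of Adipoq are printed here with those of Retn, the fat cell hormone gene resistin, because the intensities of both were high on the same arrays, as described below. Capitals mark the motif CCAAT or its reverse complement ATTGG.
Adipoq, chr16:23146286-23146535, plus strand: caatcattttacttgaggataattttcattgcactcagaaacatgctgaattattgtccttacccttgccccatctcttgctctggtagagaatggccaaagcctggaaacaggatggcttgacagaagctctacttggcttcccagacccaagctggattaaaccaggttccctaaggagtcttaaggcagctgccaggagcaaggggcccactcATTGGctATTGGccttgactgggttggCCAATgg
Retn, chr8:3655520-3655769, plus strand: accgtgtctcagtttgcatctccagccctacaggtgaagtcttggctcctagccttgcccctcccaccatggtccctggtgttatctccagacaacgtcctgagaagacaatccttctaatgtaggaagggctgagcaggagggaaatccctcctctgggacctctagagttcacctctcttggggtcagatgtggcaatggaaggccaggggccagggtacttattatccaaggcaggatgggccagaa
The Adipoq window held CCAAT 3 times, counting both strands, close to the start of the gene, where 33.8% of 32851 promoter windows of this length held it at least once. The Retn window held it 0 times. Neither window held AGGTCA, found in 14.0% of windows, or TATAAA, found in 12.4%, again on both strands, and the motifs do not overlap each other. These are matches of letters and say nothing of binding.

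Up to 48 h, Adipoq stayed low on the infarct arrays. The 12 infarct arrays of 1 h to 48 h had Adipoq intensities of 31.4 to 113 (median 62.8), against 45.8 to 114 (median 86.4) on all 18 sham upper arrays. The highest of these infarct arrays was array C of 24 h. Infarct and sham values overlapped, and most lay below the filter of 108.2, where an intensity holds little signal. Adipoq reached the filter on 6 of 18 infarct arrays, 8 of 18 remote arrays, 1 of 18 sham upper arrays and 0 of 5 sham lower arrays. It was therefore tested only because some infarct and remote arrays read high.

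At 1 week, Adipoq was 390.2, 281.3 and 1571.2 on infarct arrays A, B and C, against 76.7, 71.8 and 45.8 on sham upper arrays. All 3 infarct arrays lay above every sham array of any time. Array C stood far above the other infarct arrays, and the mean of 748 ± 715 (SD, n = 3) had an SD almost as large as itself. At 8 weeks, Adipoq was 74.9, 835.5 and 3442.0 on infarct arrays A, B and C, against 113.7, 93.9 and 100.2 on sham upper arrays. Array C carried the highest Adipoq value of the study, and array A lay below all 3 sham upper arrays of its time, so the groups overlapped. On the log2 scale the infarct arrays exceeded sham upper by 2.49 ± 0.76 (SE) at 1 week and 2.28 ± 0.76 at 8 weeks. These differences chose the genes and are given with no test.

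Car3 had the same arrays at the top. At 1 week it was 252.1, 187.7 and 1569.2 on infarct arrays A, B and C, against 62.5, 90.8 and 11.7 on sham upper arrays. At 8 weeks it was 31.6, 864.5 and 2904.0 on infarct arrays A, B and C, against 55.4, 21.7 and 18.9 on sham upper arrays. The 1 week groups did not overlap, and the 8 week groups did, since array A was again at the sham level. The log2 differences from sham upper were 2.35 ± 0.86 at 1 week and 2.96 ± 0.86 at 8 weeks. From 1 h to 48 h, Car3 was 7.3 to 80.6 on the infarct arrays, within or below the 10.6 to 121 of all sham upper arrays. Car3 is an enzyme of liver and slow muscle as well as of fat, and it reached the filter on 5 infarct, 7 remote, 2 sham upper and 0 sham lower arrays.

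Fabp4 did not follow Adipoq and Car3. It was well above the filter on all 59 arrays, at 396 to 901 on infarct arrays, 370 to 722 on remote arrays, 463 to 677 on sham upper arrays and 620 to 705 on sham lower arrays. At 1 week, Fabp4 was 659.2, 395.8 and 550.3 on infarct arrays, against 492.5, 614.2 and 526.7 on sham upper arrays. At 8 weeks it was 635.0, 565.9 and 626.7 on infarct arrays, against 550.6, 567.5 and 677.1 on sham upper arrays. The ranges overlapped at both times, and the arrays with the most Adipoq, array C of each time, were not the highest in Fabp4. The differences on the log2 scale were -0.04 ± 0.15 and 0.03 ± 0.15. The infarct arrays with Fabp4 above the highest sham value of 705 were 5, all of 1 h, 4 h or 24 h, when Adipoq and Car3 were low. Sums of 13 of 17 endothelial markers, cells that also make Fabp4, were 13310 to 14223 on infarct arrays at 1 week, against 15382 to 16692 on sham upper arrays. Sums of 15 of 16 macrophage markers were 57564 to 66412 on the same infarct arrays, against 7956 to 11183 on sham upper arrays, and the part of either cell type in the Fabp4 values was not tested.

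**Figure D1:**
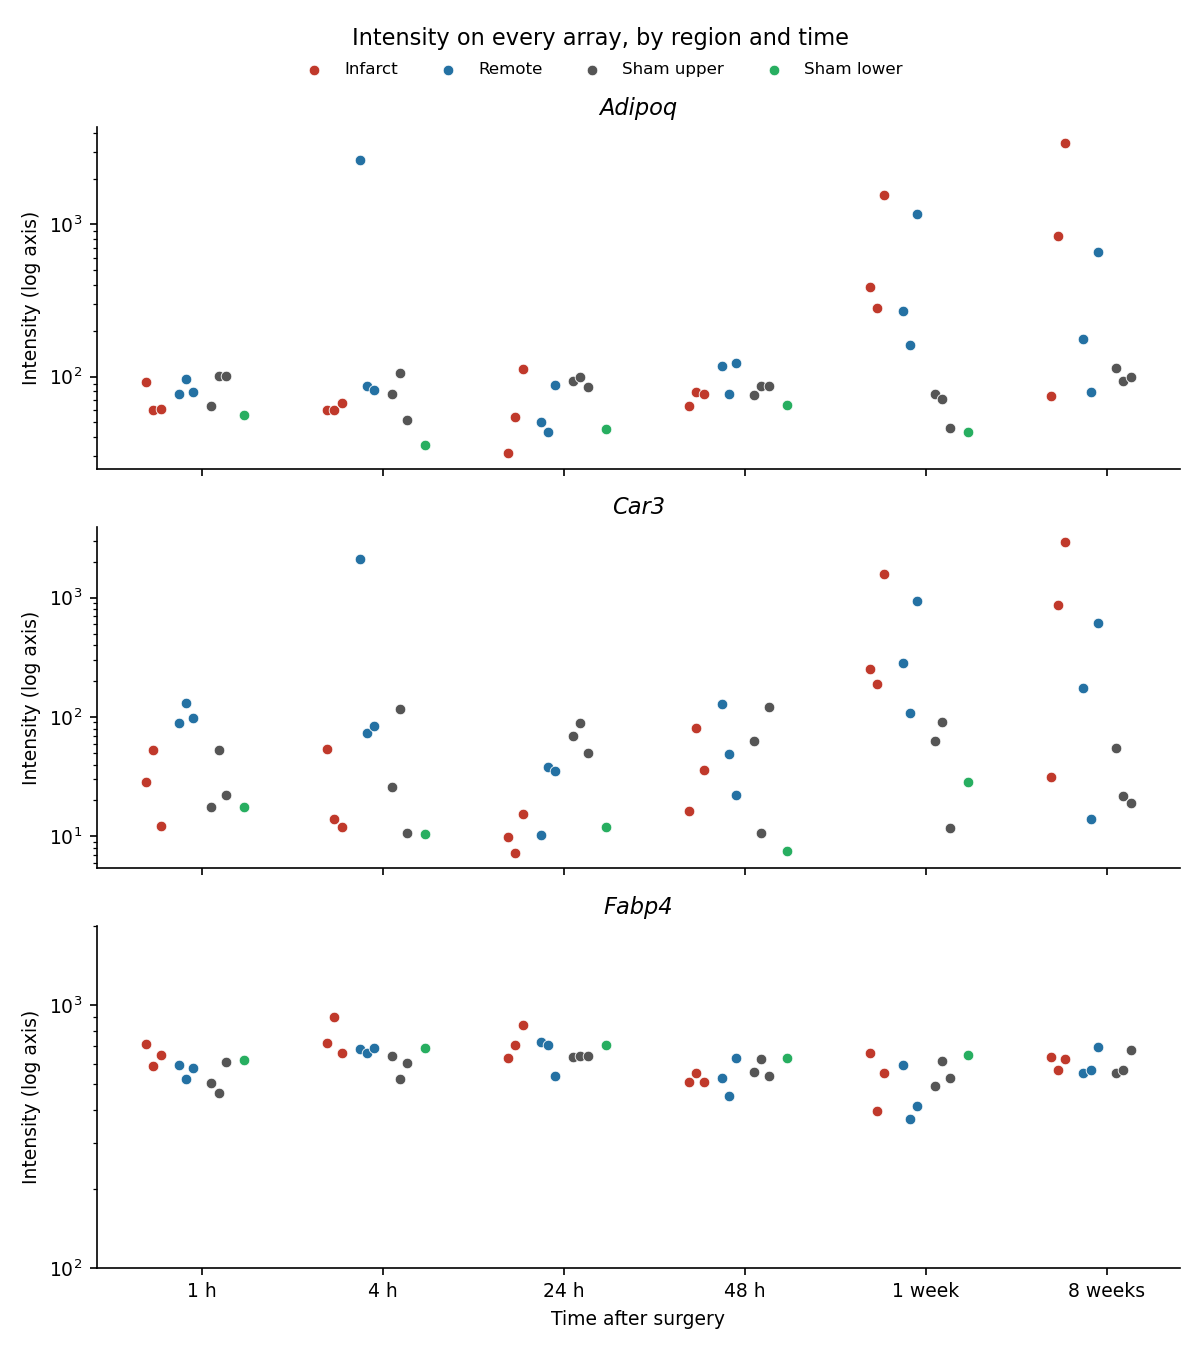
Intensity (log axis) of Adipoq, Car3 and Fabp4 on each of the 59 arrays against time after surgery, 1 point per array, with infarct, remote, sham upper and sham lower arrays side by side at each time. Adipoq and Car3 are high on 1 remote array at 4 h. At 1 week both exceed every sham value on all infarct arrays and on remote arrays A and C, and Adipoq also on remote array B. At 8 weeks both do so on infarct arrays B and C and remote arrays A and C. Their highest values are 3442 and 2904, while Fabp4 stays between 370 and 901 on every array.

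The spread within a group of 3 was of another size for Adipoq and Car3 than for Fabp4. On the infarct arrays of 8 weeks the highest value over the lowest was 46.0 for Adipoq, 91.9 for Car3 and 1.12 for Fabp4. On the infarct arrays of 1 week it was 5.59 for Adipoq, 8.36 for Car3 and 1.67 for Fabp4. On the remote arrays of 4 h it was 32.4, 28.8 and 1.04 for these genes in the same order. Fabp4 thus varied little among arrays between which Adipoq and Car3 varied widely. The same array was highest in both Adipoq and Car3 at 4 of 6 times in infarct tissue, and likewise at 4 of 6 times in remote tissue and in sham upper tissue.

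High Adipoq was not confined to infarct pieces. At 4 h, Adipoq was 2657.8, 87.1 and 82.0 on remote arrays A, B and C, against 76.6, 105.1 and 52.1 on sham upper arrays. Remote array A was below infarct array C of 8 weeks alone among all 59 arrays, at a time when the infarct arrays read 60.6, 60.1 and 67.2. Car3 on the same remote arrays was 2124.5, 73.8 and 84.5, against 25.9, 116.3 and 10.7 on sham upper arrays. Leaving array A aside, the remote arrays of 4 h lay within the sham range for both genes. Fabp4 on array A was 681.1, against 659.3 and 687.9 on the other remote arrays of 4 h. Neither gene passed the test at 4 h: the difference between remote and sham upper was 1.56 ± 0.76 on the log2 scale for Adipoq (limma adjusted p = 0.39) and 1.90 ± 0.86 for Car3 (limma adjusted p = 0.35).

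At 1 week the remote arrays gave the only call among the 3 genes. Adipoq was 268.5, 161.9 and 1177.9 on remote arrays A, B and C, against 76.7, 71.8 and 45.8 on sham upper arrays, and the groups did not overlap. The difference was 1.98 ± 0.76 on the log2 scale (limma adjusted p = 0.036), so Adipoq was 1 gene called higher of 3, where 20.7% of all genes were called higher and 38.4% in either direction. Without remote array C the difference was 1.32 and the adjusted p 0.23, and without each sham upper array in turn the adjusted p was 0.063 to 0.095. These remote pieces share their numbers with the infarct pieces that chose the genes, so this call does not stand apart from that choice. Car3 was 282.5, 107.6 and 931.8 on the remote arrays, against 62.5, 90.8 and 11.7 on sham upper arrays. All 3 remote arrays lay above all 3 sham arrays, but the difference of 1.95 ± 0.86 did not pass the test (limma adjusted p = 0.071). Fabp4 was 592.7, 370.2 and 414.0 on the remote arrays, against 492.5, 614.2 and 526.7 on sham upper arrays, a difference of -0.25 ± 0.15 that did not pass either (limma adjusted p = 0.19).

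At 8 weeks, Adipoq was 175.5, 79.2 and 655.7 on remote arrays A, B and C, against 113.7, 93.9 and 100.2 on sham upper arrays. Car3 was 176.5, 13.9 and 616.6 on the remote arrays, against 55.4, 21.7 and 18.9 on sham upper arrays. Remote and sham values overlapped for both genes, and 0 of the 3 genes were called, where 0.12% of all genes were. The differences were 0.86 ± 0.76 for Adipoq (limma adjusted p = 0.80) and 1.44 ± 0.86 for Car3 (limma adjusted p = 0.67). At 1 h, 24 h and 48 h, again 0 of the 3 genes were called in remote tissue, where 8.02%, 4.5% and 8.82% of all genes were, and at 4 h 1.74% were. Counted by array, 5 of 18 infarct arrays and 8 of 18 remote arrays had more Adipoq than the highest sham array, and 5 infarct and 7 remote arrays had more Car3. Both genes were above sham on 11 of the 36 arrays, of which 6 were remote. Some remote values were only just above. Adipoq was 117.2 and 123.4 on remote arrays A and C of 48 h, against a highest sham value of 114. Car3 was 132.2 on remote array B of 1 h and 128.7 on remote array A of 48 h, against 121. The infarct arrays counted were all of 1 week or 8 weeks, the times that chose the genes. No such count was made for all genes.

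A difference of the remote effect between times was not shown for any of the 3 genes. The F test of that difference gave an adjusted p of 0.33 for Adipoq, 0.34 for Car3 and 0.51 for Fabp4 in limma, where 27.9% of all genes passed. Across the 6 times in sham upper tissue the adjusted p was 1 for Adipoq, 0.99 for Car3 and 0.64 for Fabp4 in limma, where 20.4% of all genes passed. Sham upper Adipoq means per time ran only between 64.8 at 1 week and 103 at 8 weeks (n = 3 each). Adipoq reached the filter on 1 and Car3 on 2 of the 18 sham upper arrays, so for these genes the sham test says little.

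Pieces from the same number were then set side by side, since each pair is taken to come from 1 mouse. At 1 week the infarct piece was above the remote piece in Adipoq for all 3 numbers, with infarct over remote ratios of 1.45, 1.74 and 1.33. In Car3 the ratios were 0.892, 1.74 and 1.68, so the infarct piece of number A was below its remote piece. Number C was the highest of the 3 in both of its pieces, in Adipoq and in Car3. At 8 weeks the pieces of 1 number differed far more. Number C had 3442.0 of Adipoq in infarct and 655.7 in remote tissue, number B had 835.5 and 79.2, and number A had 74.9 in infarct and 175.5 in remote tissue. Number B was thus high in its infarct piece alone, and number A in its remote piece alone. At 4 h, number A had 60.6 of Adipoq in the infarct piece, against 2657.8 in the remote piece, a ratio of 0.0228. Its Car3 ratio was 0.0254. Fabp4 ratios lay between 0.807 and 1.37 over the 17 pairs.

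**Figure D2:**
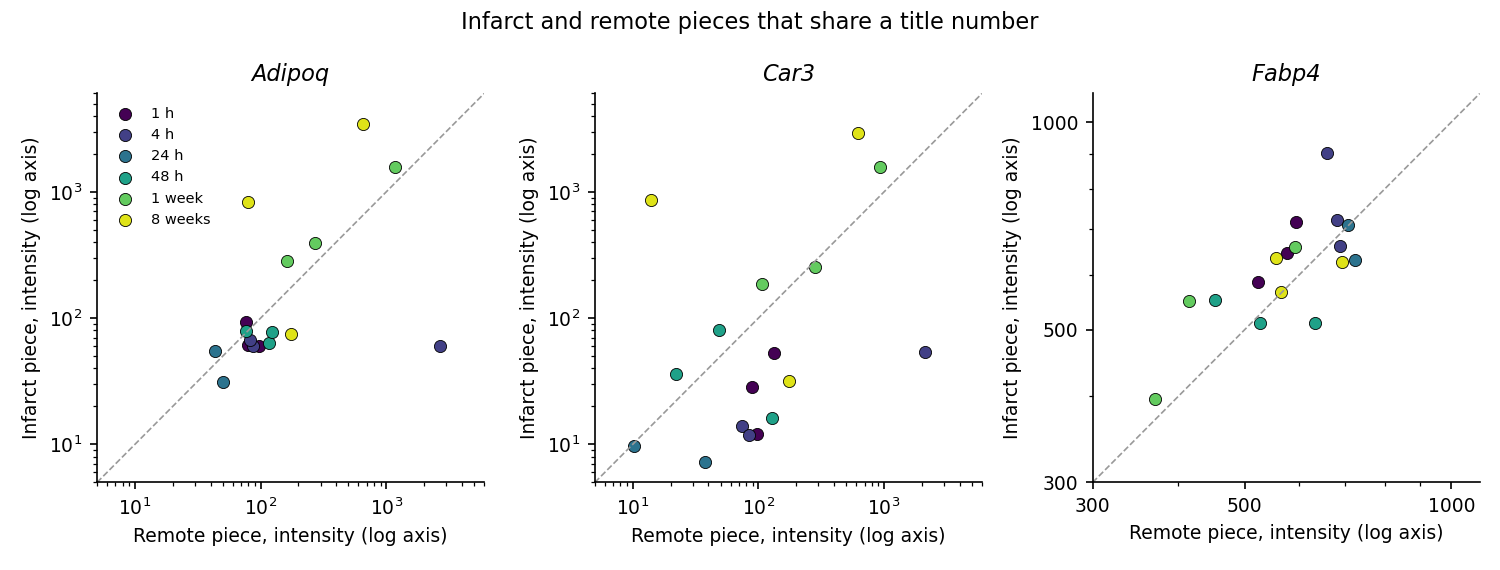
Intensity of Adipoq, Car3 and Fabp4 in the infarct piece against the remote piece of the same title number, 17 pairs, both axes log, coloured by time; the dashed line marks equal values. For Adipoq and Car3 pair A of 4 h lies far below the line and pairs B and C of 8 weeks far above it, while Fabp4 ratios stay between 0.807 and 1.37.

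In sham hearts the lower ventricle, the place of the infarct, read lower in Adipoq than the upper ventricle, and none of the 3 genes passed the test. Adipoq was 56.1, 35.6, 45.4, 64.8 and 43.0 on the sham lower arrays of 1 h, 4 h, 24 h, 48 h and 1 week, against 101.1, 76.6, 85.2, 86.6 and 45.8 on the sham upper arrays of the same numbers. The lower piece was below the upper piece in all 5 pairs, but all these values lay below the filter of 108.2, where an intensity holds little signal. With the number as a fixed block the difference was -0.39 ± 0.11 on the log2 scale, which did not pass after adjustment (limma adjusted p = 0.21). The tests called 0 of 6670 genes (0%), and 961 had an unadjusted p below the threshold. Car3 differed by -0.18 ± 0.15 (limma adjusted p = 0.60) and Fabp4 by 0.10 ± 0.09 (limma adjusted p = 0.59). With 1 sham lower array per time, infarct tissue could not be tested against its own region at single times.

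Adipoq and Car3 moved together from array to array. Over the 18 remote arrays, Pearson's r of their log2 values was 0.95 and Spearman's rho was 0.77. The genes were chosen because both were high on the same infarct arrays, which share numbers with remote arrays, so these values are given as a description with no p. Without the 2 arrays farthest from the median of Adipoq, r was 0.86, and after the mean of each time was taken off it was 0.95. Over the 18 sham upper arrays, where both genes were near the floor, r was 0.42 (permutation p = 0.082, adjusted p = 0.25), rho was 0.29 (permutation p = 0.23, adjusted p = 0.52), and r was 0.12 without the 2 farthest arrays and 0.69 after the mean of each time was taken off. No relation with Fabp4 passed. Its r was -0.07 with Adipoq (permutation p = 0.72) and -0.07 with Car3 (permutation p = 0.75) on remote arrays, with rho of -0.27 (permutation p = 0.29) and -0.24 (permutation p = 0.34). On sham upper arrays its r was 0.12 (permutation p = 0.62) and -0.18 (permutation p = 0.48), with rho of 0.03 (permutation p = 0.91) and -0.11 (permutation p = 0.65). In these 4 relations the adjusted p of r was 0.75, all 6 relations were adjusted together, and without the 2 farthest arrays r was -0.04, -0.03, 0.09 and -0.08 in the order given. After the mean of each time was taken off, r with Fabp4 was 0.10 for Adipoq and 0.12 for Car3 on remote arrays, and -0.12 for Adipoq and -0.45 for Car3 on sham upper arrays.

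Other genes whose values followed the 3 genes were sought by Pearson's r with the mean of their standardised log2 values. Over all 59 arrays the closest were Scd1 at 0.85, Retn at 0.83 and Cyp2e1 at 0.79, followed by Cxcl13, C1ra, Upk3b, Cd1d1 and Nnat at 0.65 to 0.69. After the mean of each group was taken off the 54 infarct, remote and sham upper arrays, they were Cyp2e1 at 0.89, Scd1 at 0.83 and Retn at 0.80, then Kctd10, Upk3b, Eln, Cxcl13 and Adgrd1 at 0.72 to 0.73. Scd1 makes monounsaturated fatty acids, resistin is a fat cell hormone in mice, Cyp2e1 is an enzyme of liver and fat, and Upk3b is a mesothelial gene. Fabp4 reached 0.31 and 0.50 with the mean that it is itself part of. With Adipoq alone, a measure added after these values were seen, Retn had 0.92, Scd1 0.91, Cyp2e1 0.89 and Hp 0.81 after group means, where Car3 had 0.92 and Fabp4 0.11. These values share their arrays and rest on the few arrays with high Adipoq, and they are a description.

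Retn showed the pattern by array. It was 13.7, 146.1 and 295.8 on infarct arrays A, B and C at 8 weeks, against 21.7, 40.1 and 22.8 on sham upper arrays. At 1 week it was 13.1, 13.1 and 102.3 on infarct arrays, against 17.2, 12.5 and 14.4 on sham upper arrays. At 4 h it was 224.1, 17.8 and 14.2 on remote arrays, against 15.3 to 16.3 on the 3 sham upper arrays. On remote arrays it was 18, 14.8 and 38.1 at 1 week, and 63.1, 12.4 and 50.7 at 8 weeks. Retn above the highest sham value of 40.1 was found on infarct arrays B and C of 8 weeks, infarct array C of 1 week, remote array A of 4 h and remote arrays A and C of 8 weeks, all with Adipoq above sham. The match was not complete. Remote array C of 1 week had 1177.9 of Adipoq with Retn inside the sham range. Arrays A and B of 1 week, infarct and remote, had Adipoq above sham and Retn inside its sham range too. At 8 weeks remote array A was higher in Retn than array C, which had more Adipoq. Of the Retn values above sham, 102.3, 63.1 and 50.7 lay below the filter of 108.2, where an intensity holds little signal.

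Scd1, the desaturase, had a higher floor and its highest values on arrays with high Adipoq, but was not high only there. It was 591.2, 2415.2 and 8041.5 on infarct arrays at 8 weeks, against 601.4, 444.6 and 467.8 on sham upper arrays. At 4 h it was 4421.1, 589.8 and 537.9 on remote arrays, against 591.6, 641.8 and 442.5 on sham upper arrays. Scd1 was also 1311.8 on infarct array C of 24 h, against at most 666 on sham arrays. Adipoq was 112.8 and Car3 15.5 on that array, both inside their sham range. Cidec, which encodes a protein of the fat droplet surface, did not pass the filter, yet read 5.1, 20.7 and 153.1 on infarct arrays at 8 weeks, against 4.4, 4.2 and 4.2 on sham upper arrays. On remote arrays at 4 h Cidec read 60.6, 7.0 and 7.8, against 4.8, 2.5 and 1.3 on sham upper arrays. Only infarct array C of 8 weeks had Cidec above the filter of 108.2, below which an intensity holds little signal. Both genes had their highest value on the array that was highest in Adipoq in all 5 groups examined, which were infarct and remote at 1 week and at 8 weeks and remote at 4 h, and the same was so of Cyp2e1 and Rbp4. Retn, Hp, Pck1 and Fasn shared the top array with Adipoq in 4 of these 5 groups. Lep, the gene of leptin, did so in 2, Fabp4 in 1, and Pparg, the nuclear receptor that drives fat cell formation, in 0. These groups held arrays with high Adipoq, and each had only 3 arrays. Scd1, Retn, Cyp2e1 and Hp were named because they followed Adipoq or the 3 genes on these same arrays. Cidec, Lep and Pparg were singled out after their values were seen. The matches are therefore a description, and no share over all genes was computed.

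**Figure D3:**
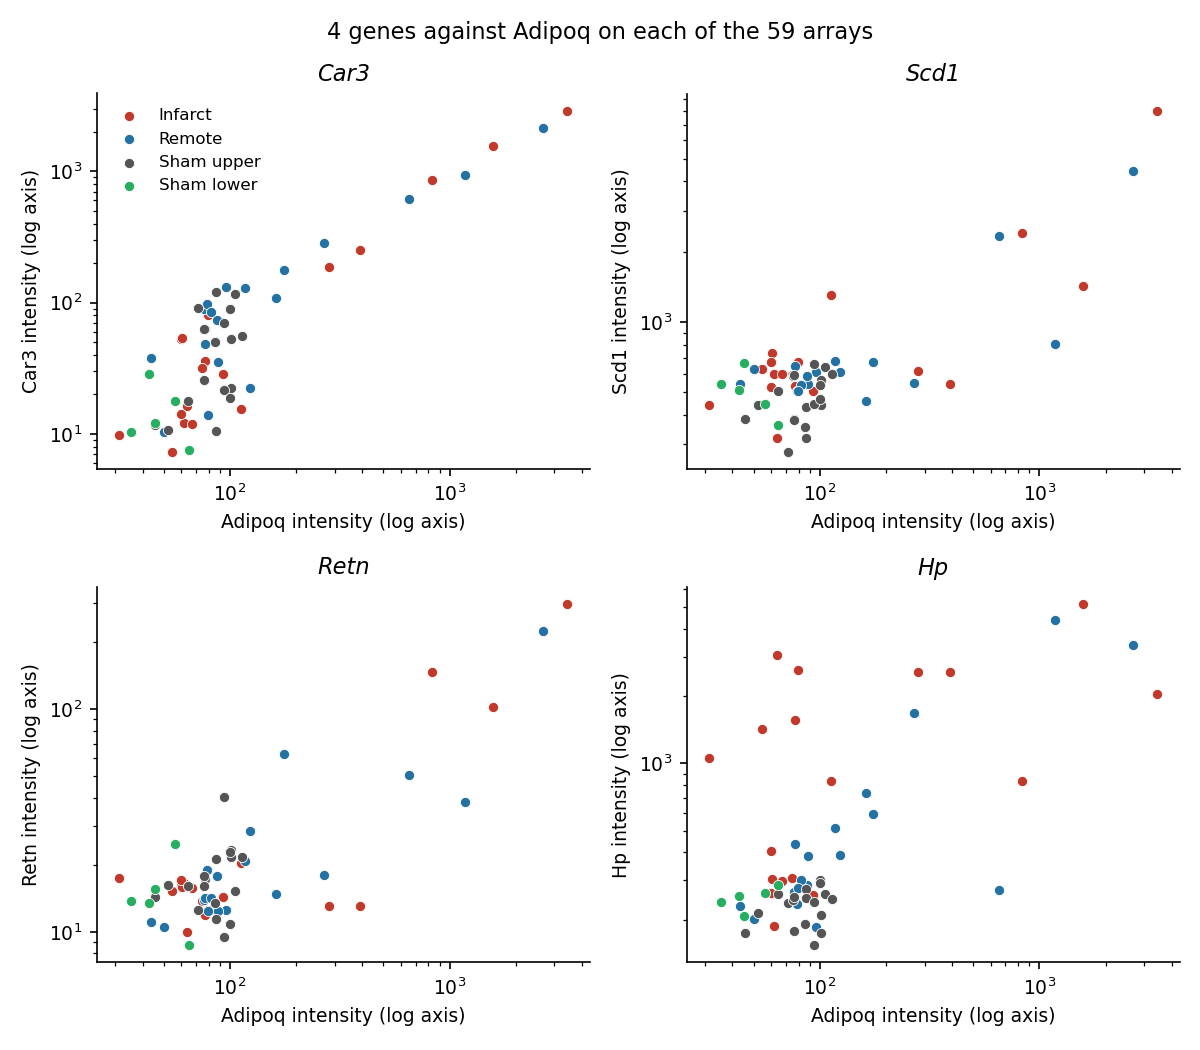
Intensity of Car3, Scd1, Retn and Hp against that of Adipoq on each of the 59 arrays, both axes log, coloured by region. Above an Adipoq of about the highest sham value, 114, Car3 climbs with Adipoq in infarct and remote arrays alike; Scd1 and Retn are highest on the infarct array with 3442 of Adipoq; and Hp, which encodes haptoglobin, is also high on infarct arrays with little Adipoq.

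Genes known from fat were counted next, from 3 lists of 36 genes other than the 4, of which 27 were tested. The lists were written with results of these data known, and the counts describe these arrays. In infarct tissue at 1 week, 5 were called higher and 14 lower, together 70.4% of the 27, where 34.9% of all genes were called higher and 25.7% lower, together 60.5%. At 8 weeks, 5 were called higher and 6 lower, together 40.7%, where 11.5% of all genes were called higher and 9.66% lower, together 21.1%. At 24 h and 48 h, 2 and 4 were called higher and 11 lower at each. Of all genes, 18.6% were called higher and 24% lower at 24 h (42.6% together), and 25.1% and 25.8% at 48 h (50.9% together). At 1 h and 4 h, 3 and 1 were called, all lower. Of all genes, 3.66% were called higher and 3.12% lower at 1 h (6.78% together), and 5.25% and 6.69% at 4 h (11.9% together).

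The fat cell genes proper held both rises and falls at 1 week. Of 10 tested at 1 week in infarct tissue, 2 were called higher and 3 lower, with a median difference of 0.15, against 0.11 for all genes. Of all genes, 34.9% were called higher and 25.7% lower, so these counts do not set the fat cell genes apart. Rbp4, the gene of retinol binding protein, rose by 2.12 ± 0.32 (limma adjusted p = 2.1e-07), and Cebpa, a transcription factor of fat cells that macrophages and liver also use, rose by 2.06 ± 0.21 (limma adjusted p = 3.8e-11). Cebpa was nearly equal on the 3 infarct arrays, at 2271.3, 2577.2 and 2447.7, so it did not follow the spread of Adipoq. Thrsp fell by 2.56 on the log2 scale, Lipe, the hormone-sensitive lipase, by 1.25 and Aqp7, a glycerol channel, by 1.03. At 8 weeks, 3 of the 10 were called higher and 0 lower, where 11.5% and 9.66% of all genes were. These were Rbp4 by 1.37 ± 0.32, Pck1 by 1.18 ± 0.38 and Retn by 1.10 ± 0.38, with limma adjusted p of 0.0018, 0.024 and 0.033. Pck1 and Retn stayed below the filter of 108.2 on all sham arrays, at up to 83.9 and 40.1. They were tested only because some infarct and remote arrays read high, those of 8 weeks among them. Their calls therefore do not stand apart from the filter. The median of the 10 was 0.16 at 8 weeks, against -0.01 for all genes. Lep was 582.9, 563.0 and 1079.8 on these infarct arrays and passed at neither time. The sum of 11 of 13 fat cell markers was 5999 on infarct array C of 8 weeks, against 3558 and 4112 on infarct arrays A and B. On infarct array C of 1 week it was 4710, against 4144 and 4354, and 3189 to 4845 on all sham upper arrays. It was 4622 on remote array A of 4 h, against 3699 and 3621. On remote array C of 1 week it was 3691, below the 3989 of remote array A. The sum thus did not follow Adipoq on every array.

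Of 8 genes of fat synthesis tested, Fasn, the fatty acid synthase, and Acly rose at 1 week in infarct tissue, by 0.73 ± 0.24 and 1.04 ± 0.13, and Gpd1, Me1 and Dgat1 fell by 1.17, 1.09 and 0.51. At 1 week 34.9% of all genes were called higher and 25.7% lower. At 8 weeks Scd1 rose by 2.09 ± 0.55 (limma adjusted p = 0.0058) and Fasn by 0.90 ± 0.24 (limma adjusted p = 0.0058), and 0 were called lower. Of all genes, 11.5% were called higher and 9.66% lower at 8 weeks. The calls of all 5 rises of 8 weeks depended on 1 array. Infarct array B also read 2415.2 in Scd1, 146.1 in Retn and 204.0 in Pck1, against at most 666, 40.1 and 83.9 on sham arrays. Without infarct array C, 0 of the 27 genes were called higher and 2 lower, with limma adjusted p of 0.063 for Rbp4, 0.13 for Scd1 and for Fasn, 0.29 for Pck1 and 0.36 for Retn.

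The genes of fat handling that heart muscle shares with fat were mostly lower. Of 9 tested, 8 were called lower and 1 higher in infarct tissue at 1 week, with a median of -2.19, against 0.11 for all genes. Of all genes, 25.7% were called lower and 34.9% higher. Slc2a4, the insulin-dependent glucose transporter, fell by 3.85 on the log2 scale, Fabp3, the fatty acid binding protein of heart muscle, changed by -2.78, and Lpl, lipoprotein lipase, by -2.19 on the log2 scale. Angptl4, which inhibits that lipase, rose by 1.65 ± 0.26 (limma adjusted p = 5e-07). At 8 weeks 6 of the 9 were lower and 0 higher, with a median of -0.67, where 9.66% of all genes were called lower and 11.5% higher. Without infarct array C only 2 of all 27 list genes were called lower at 8 weeks. Beside these counts, the sum of 15 cardiomyocyte markers was 26416 to 93537 on infarct arrays at 1 week, against 250367 to 280977 on sham upper arrays, and its part in the falls was not tested.

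**Figure D4:**
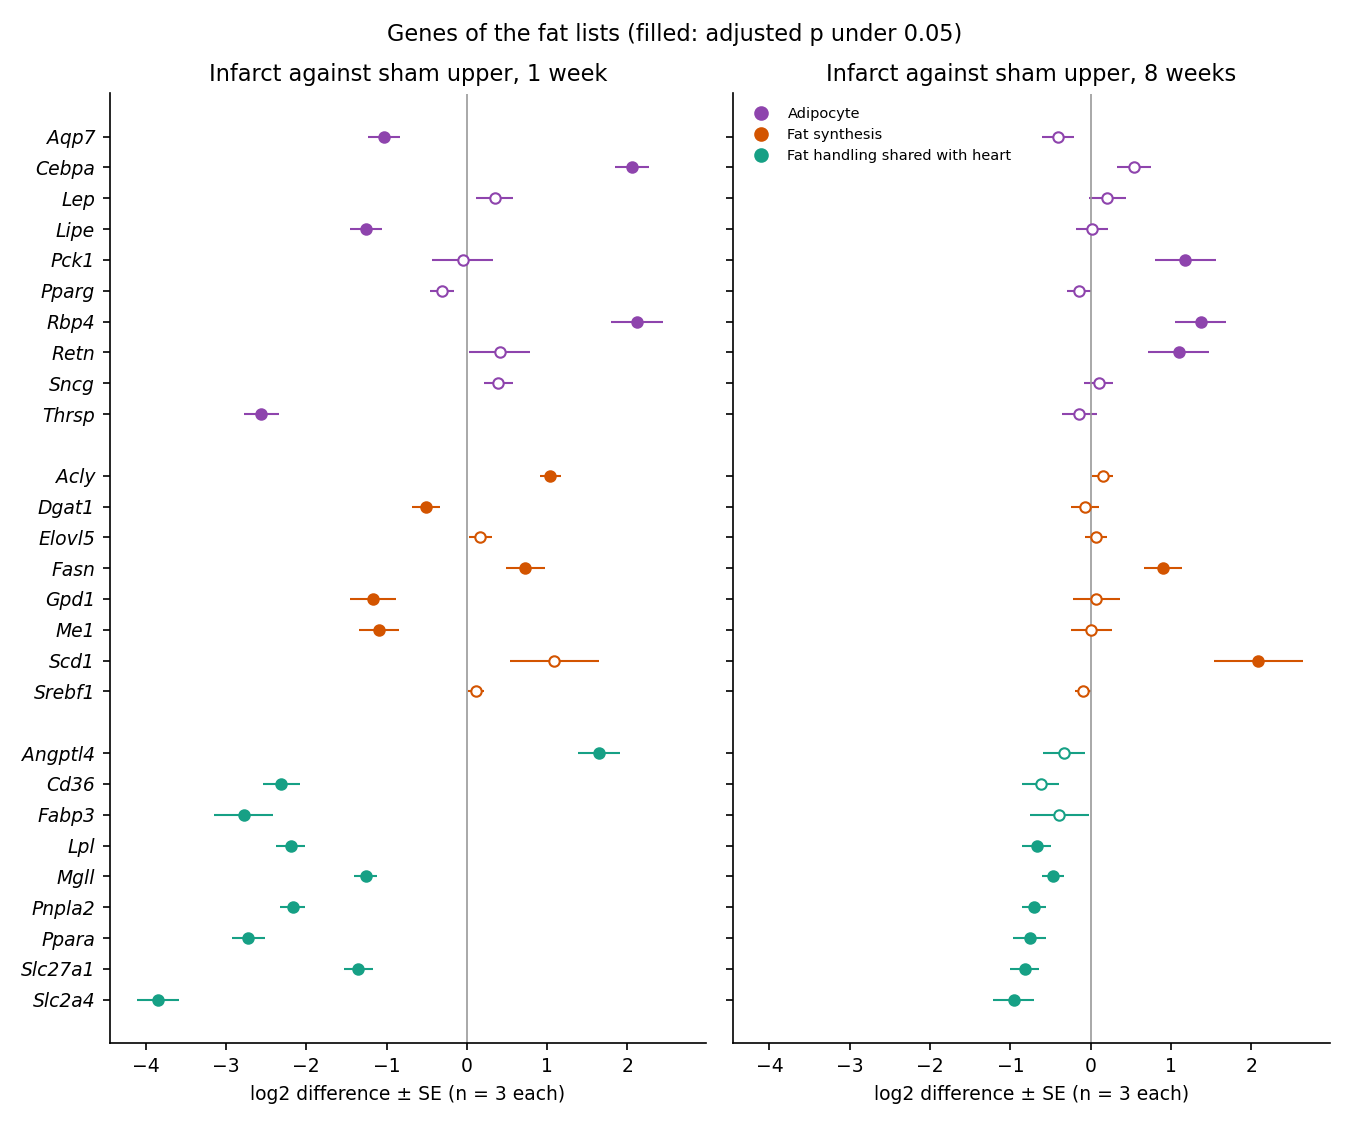
Difference between infarct and sham upper tissue on the log2 scale, with its SE (3 arrays each), for the 27 tested genes of the 3 lists, at 1 week (left) and 8 weeks (right); filled points passed at an adjusted p under 0.05. Genes of fat handling shared with heart lie below 0 but for Angptl4 at 1 week, and Scd1 is the highest at 8 weeks.

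In remote tissue at 1 week, 3 of the 27 genes were called higher and 10 lower, together 48.1%, where 20.7% of all genes were called higher and 17.7% lower. Cebpa rose by 1.38 ± 0.21, Angptl4 by 1.12 ± 0.26 and Acly by 0.46 ± 0.13, and among the falls were Thrsp by 1.46, Ppara, a nuclear receptor of fat burning, by 1.38, and Slc2a4 by 1.32. Retn, which followed Adipoq by array, was not called in remote tissue at 4 h (0.71 ± 0.38, limma adjusted p = 0.45), 1 week (0.18 ± 0.38, limma adjusted p = 0.75) or 8 weeks (0.21 ± 0.38, limma adjusted p = 0.91). At 4 h, 1 of the 27 was called higher, Angptl4, where 1.42% of all genes were called higher and 0.315% lower. At 24 h Angptl4 was called higher and Ppara lower, where 2.94% and 1.56% of all genes were, and at 48 h Angptl4 and Lipe were called higher, where 4.47% were called higher and 4.35% lower. At 1 h and 8 weeks 0 were called, where 8.02% and 0.12% of all genes were.

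Brown fat was checked by 7 marker genes, of which 5 were on the array. Ucp1, the uncoupling protein that defines brown fat, lay below the filter on every array, as did Elovl3 and Slc27a2. Cidea and Dio2 were tested. In infarct tissue at 1 week Cidea fell by 1.86 on the log2 scale and Dio2 rose by 0.90 ± 0.26, and at 8 weeks Dio2 rose by 1.24 ± 0.26. Cidea also fell in infarct tissue at 24 h by 1.25 and at 48 h by 1.04. In remote tissue at 48 h Cidea rose by 0.69 ± 0.20 (limma adjusted p = 0.026), at 1253 to 1328 on the remote arrays, against 684 to 862 on sham upper arrays, while Adipoq was 117.2, 77.0 and 123.4 on those remote arrays. In remote tissue at 1 week Dio2 rose by 1.47 ± 0.26 (limma adjusted p = 2.3e-05) and Cidea fell by 0.71 on the log2 scale (limma adjusted p = 0.0055). Cidea was 125.8 on infarct array C of 1 week, the lowest of its group, where Adipoq was highest.

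The arrays with most Adipoq were also examined for what else set them apart. On infarct array C at 1 week, 32 genes exceeded the higher of the other infarct arrays by more than 1 on the log2 scale. The 8 largest excesses were those of Igkv6-23 (3.11), Igkv4-91 (2.93), Car3 (2.44), Igkv4-70 (2.40), Igkv8-19 (2.38), Jchain (2.16), Ighm (2.01) and Adipoq (1.89). All but Car3 and Adipoq are immunoglobulin genes or, as Jchain, join immunoglobulins. Igkv genes are near copies of each other, so their probe sets may share signal. The sum of 11 of 13 B and plasma cell markers was 5425 on array C, against 2255 and 1771 on infarct arrays A and B. Array C also had the lowest cardiomyocyte sum, 26416, and a Myh6 intensity of 580.4, against 8650.6 and 7876.7 on infarct arrays A and B. Fabp4 was lower there than on array A, with an excess of -0.24.

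On infarct array C at 8 weeks, 99 genes had such an excess. Alas2 (2.51), Tent5c (2.43), Nnat (2.33), Chad (2.16), Ccr6 (2.14), Krt19 (2.12), Adipoq (1.98) and Pip4k2c (1.98) were the 8 largest, and Car3 ranked 13 at 1.70. They are of mixed origin: Alas2 starts heme synthesis in red cell precursors, Chad is a cartilage matrix gene and Krt19 is a keratin of epithelium and mesothelium. Array C had the lowest cardiomyocyte sum of its group, 157458, against 230155 on array A and 202646 on array B, and a Myh6 of 12907.6, against 22832.1 and 20807.1.

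Remote array A at 4 h, examined after its values were seen, was the one where Adipoq and Car3 led all genes, by 4.35 and 4.06 on the log2 scale. Hp (3.31), Scd1 (2.81), Cdo1 (2.12), Ptx3 (2.11), Retn (2.09) and Saa3 (1.93) came next of 43 genes with an excess over 1. Its cardiomyocyte sum of 245560 lay at the level of the other remote arrays of 4 h, 255968 and 245558, and Myh6 was 26161.1, against 26667.6 and 25535.0. The heart muscle signal of this array was therefore not lower, unlike that of infarct arrays C of 1 week and 8 weeks. The 50 genes with the largest excess were compared between arrays. Infarct array C of 8 weeks and remote array A of 4 h shared 6, Aard, Adipoq, Car3, Hp, Nnat and Scd1. Infarct array C of 1 week and remote array A of 4 h shared 10. These were Adipoq, Car3, Cdo1, Cxcl13, Cyp2e1, Hp, Igkv6-23, P2rx6, Retn and Scd1. Remote array C of 1 week, also examined after its values were seen, had 72 genes with an excess over 1. The 8 largest were Krt6a (2.6), Mmp9 (2.43), Adipoq (1.96), Ccl8 (1.93), Napsa (1.91), Itgb4 (1.87), H2-Q1 (1.77) and Sfn (1.71). Car3 ranked 12 there at 1.57. Among its 50 largest, 7 were shared with infarct array C of 1 week: Adipoq, Car3, Hp, Ighm, Igkv4-91, Igkv6-23 and Jchain. The remaining pairs of these arrays shared 6 or 7, with Adipoq, Car3 and Hp among them each time. Each array was picked as the highest of its group in the mean of the 3 genes. That Adipoq and Car3 were shared thus follows largely from that choice, and no expected overlap was computed.

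Markers of tissues that lie next to the heart were summed beside these values. The sum of 8 of 12 mesothelial markers was 2035 on infarct array C of 1 week, against 1264 and 1208 on infarct arrays A and B, and 1849 on infarct array C of 8 weeks, against at most 665 on infarct arrays A and B. It was 808 on remote array A of 4 h, against 549 and 485 on remote arrays B and C. Sham upper arrays ran from 325 to 764 and sham lower arrays from 424 to 796. On remote array C of 1 week it was 2325, against 1596 and 806 on remote arrays A and B. The array with most Adipoq was thus highest in the mesothelial sum in each of these groups. Of 7 mesothelial genes tested, 7 were called higher in infarct tissue and 6 in remote tissue at 1 week, where 34.9% and 20.7% of all genes were, and 0 in either at 8 weeks. The sum of 16 of 17 skeletal muscle markers, a tissue that also makes Car3, was 2314 on infarct array C of 1 week, 4409 on infarct array C of 8 weeks and 5836 on remote array A of 4 h, each the lowest of its group, against 4343 to 7481 on all sham upper arrays. On remote array C of 1 week this sum was 6162, against 5913 and 7298 on remote arrays A and B. The skeletal muscle markers Myh1, Myh2, Tnnt3, Tnni2 and Ryr1 lay below the filter on every array. Gapdh ratios were 0.781 on infarct array C of 1 week, 0.756 on infarct array C of 8 weeks and 0.835 on remote array A of 4 h, and the value of infarct array C of 8 weeks was the lowest of its group. Sums of immune and fibroblast markers were also high on some of these arrays. On remote array A of 4 h the macrophage sum was 15529, against 9496 and 10375 on remote arrays B and C and at most 13083 on sham upper arrays. The sum of 11 of 12 neutrophil markers there was 6881, against 4072 and 3859, and the B and plasma cell sum was 1791, against 1226 and 1232. In the B and plasma cell sum, sham upper arrays reached 1767 and sham lower arrays 1782. On infarct array C of 8 weeks the sum of 12 fibroblast markers was 69407, against 35149 on array A and 51280 on array B. The sum of 10 of 12 T cell and thymocyte markers was 1856 on remote array C of 1 week. It was 1163 and 623 on remote arrays A and B, and at most 1120 on sham upper arrays. The part of mesothelium, lung, B and plasma cells, T cells, macrophages, neutrophils, fibroblasts or RNA quality in the Adipoq and Car3 values was not tested. Fat carried along with a piece of tissue and fat cells formed in it cannot be told apart from these intensities.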

How the data were processed

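The deposited values were linear array intensities, which the authors had brought to nearly the same trimmed mean on all arrays (499.2 to 499.9); how is not given in the sources used here. Of 12488 probe sets, 66 controls, 396 with several genes and 1193 with none were left out, and the brightest probe set stood for each of 2073 genes with several. Genes that reached the 40th percentile, 108.2, on at least 3 arrays were tested.

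Log2 values were taken after 45.6, 0.25 times the median, was added, which understates changes of dim genes. Differences were fitted with limma 3.58.1 in R 4.3.3, in 1 model of 23 groups with the title number as a random block (consensus correlation 0.148), or as a fixed block between sham lower and upper. P values were adjusted by Benjamini-Hochberg over 6670 genes and called at 0.05; they measure the spread between these pieces. Correlations over arrays used 100000 two-sided permutations. No 2 arrays were identical (highest correlation 0.986). Figures used Python 3.11.15 and matplotlib 3.10.9. Scripts were tested on simulated data.

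The genes, lists and tests were chosen with earlier results of these data known. Named list genes were taken from up to 5 per list and direction with the largest change among those called in infarct tissue at 1 week or 8 weeks or in remote tissue. The genes most like the members and the 8 with the largest excess on infarct array C of both times were also named. Hp, Cdo1, Lep, Pparg, Cidec, remote array A of 4 h and remote array C of 1 week were singled out after their values were seen. Alternatives were other offsets, quantile normalization, no filter, every probe set, no replicate block, fits of 2 groups, both sham regions as control, and each array left out.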

Additional observations from a re-analysis of the deposited data

How the results depend on the processing

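The low intensity of Adipoq and Car3 in sham tissue limits their changes, since the added offset shrinks them, and 3 arrays a group limit every test. The Adipoq call in remote tissue at 1 week was lost with an offset of 1 times the median (difference 1.27, limma adjusted p = 0.074) and after quantile normalization (1.78, limma adjusted p = 0.067), which made 0 calls among the 3 genes. With only the 2 groups compared, and with sham upper and lower arrays together, the count was 2, as Car3 passed too (limma adjusted p = 0.043 and 0.037). With single arrays left out the count was 0 to 2: Car3 passed without remote array B (2.51, limma adjusted p = 0.038), and Fabp4 was called lower without remote array A (-0.40, limma adjusted p = 0.039). Of the 27 other fat list genes, the 3 called in infarct tissue at 1 h became 0, the 1 at 4 h became 6 and the 11 at 8 weeks became 0 with only the 2 groups compared; without the filter the 1 at 4 h became 2. In remote tissue the 2 called at 24 h became 1 with an offset of 0.05 times the median, quantile normalization, no filter or only the 2 groups compared, and the 2 at 48 h became 1 with no filter or only the 2 groups compared and 4 with sham upper and lower together. The cause of these moves was not tested. With single arrays left out, the counts of list genes were 1 to 2 at 1 h, 10 to 13 at 24 h, 13 to 15 at 48 h, 18 to 21 at 1 week and 2 to 13 at 8 weeks in infarct tissue, and 1 to 3 at 24 h, 1 to 3 at 48 h and 11 to 14 at 1 week in remote tissue; these fits kept the consensus correlation of all arrays. Without the replicate block 18 of 21 counts were equal, and the others were 3 at 48 h in remote tissue and 2 at 1 h and 20 at 1 week in infarct tissue; Ppara in infarct tissue at 1 h lost its call. The deviations of infarct and remote pieces of 1 number correlated over 0.1 in 0 of 8 pairs up to 24 h and in 7 of 9 pairs from 48 h on, among them all 3 of 1 week (0.22, 0.26 and 0.42), so the number was not shown to pair the pieces at every time. No called gene changed direction under the alternatives run. Of the differences given with no test, Adipoq in infarct tissue at 4 h was 0.06 without infarct array A, against -0.17 with all arrays, and Car3 there was 0.14 without 1 sham upper array, against -0.31.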

Other observations

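Hp, which encodes haptoglobin, a plasma protein that binds free haemoglobin and is made by liver and fat, was among the genes closest to Adipoq but was also high where Adipoq was low. On infarct arrays it was 2564.3, 2567.6 and 5147.0 at 1 week and 306.7, 831.1 and 2036.3 at 8 weeks, against 154 to 301 on all 18 sham upper arrays. On remote arrays it was 3378.4, 285.6 and 300.1 at 4 h and 1686.2, 737.1 and 4369.7 at 1 week. The array highest in Adipoq was also highest in Hp in each of these groups. At 8 weeks on remote arrays Hp was 594.7, 278.7 and 270.9, and there remote array A, not the array with most Adipoq, was highest.

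Cyp2e1, an enzyme of liver and fat that oxidises ethanol and ketones, had a narrow range on sham upper arrays, 246 to 503. It was 348.2, 243.4 and 666.1 on infarct arrays at 1 week, 317.5, 908.7 and 1324.7 on infarct arrays at 8 weeks, and 1418.2, 374.6 and 488.5 on remote arrays at 4 h. On remote arrays it was 752.5, 383.9 and 918.9 at 1 week, 473.9, 440.0 and 687.1 at 8 weeks and 375.6, 350.2 and 675.4 at 48 h. The array highest in Adipoq was the highest in Cyp2e1 in each of these groups, but values above the sham range were also found on arrays with less Adipoq, as on remote array C of 48 h, where Adipoq was 123.4, and on remote array A of 1 week, where it was 268.5. Hp and Cyp2e1 were chosen after their values were seen, and these values are a description.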
